A study of Mus musculus with 4 samples.

Results

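The genes described here code for interleukins, their receptor chains and their natural inhibitors, in mouse T cells. They were chosen by name: protein-coding genes whose symbol starts with Il and a digit (72 genes), plus 7 added by name (Csf1, Csf2, Csf2rb, Lif, Ifng, Ifngr1 and Ifngr2), after the IL-2 and IL-15 chains and Il17a, Il17f, Il22 and Il23r had been left out. This gave 79 genes of the 50600 in the deposited tables. The RNA came from primary T cells of the strain C57BL/6NJ, sequenced as 4 libraries that the labels number as biological replicates 1 to 4 of a single group. The file headers call the cells Th0, activated, sorted and 72 h, the linked culture protocol is named for CD4 T cells, and all libraries carry the same donor entry. With no second condition, the comparisons possible were between genes inside a library and between the libraries themselves. The p-values refer only to these 4 samples, and the spread between them may be technical.

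Interleukins are secreted signals between leukocytes, and most act through receptors built from a chain that binds the ligand and a chain that several receptors share. Receptors of the common gamma chain group (IL-4, IL-7, IL-9, IL-21), of the beta common group (IL-3, IL-5, GM-CSF) and of the gp130 group (IL-6, IL-11, IL-27, LIF) signal through Janus kinases and STAT factors, while those of the IL-1 and IL-17 groups use adaptor proteins. Th0 is the name given to CD4 T cells activated without cytokines that direct them to a helper subset, and which of these genes such cells transcribe describes what they can send and receive.

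Levels were expressed as TPM, in which the counts of read pairs are divided by the exon length of each gene and scaled to the same total in every library, so that genes can be set beside each other. The libraries held 34978213, 118937382, 42274502 and 95356041 counts in replicates 1 to 4. A count of 0 allows up to 3 counts at 95% confidence, or 0.0858 CPM (counts scaled to the library total, not to gene length) in replicate 1 and 0.0252 in replicate 2, a limit that covers counting error only. All 10 T cell markers, such as Cd3e, Cd4 and Trac, stood at or above 1 TPM in all 4 libraries, with a summed level of 8206 to 8754 TPM. Of the other lists, 1 of 8 B cell markers did so (Cd79b, summed level 3.73 to 6.70 TPM). For macrophages and monocytes 2 of 8 did so (Cd68 and Adgre1, summed level 14.6 to 18.9 TPM, mostly Cd68), with Lyz2 and Fcgr1 at 0 counts. For dendritic cells 2 of 8 did so (H2-Ab1 and Zbtb46, 37.9 to 46.0 TPM, mostly H2-Ab1), with Clec9a, Itgax, Siglech and Cd209a at 0. The level was reached by 1 of 8 for NK and innate lymphoid cells (Eomes, 4.34 to 7.04 TPM). It was also reached by 1 of 8 for CD8 and gamma-delta T cells (Cd8b1, 19.1 to 31.5 TPM), with Trgv2 at 0. Of 9 stromal, endothelial and epithelial markers, 3 did so (Pdgfrb, Epcam and Krt18, 8.88 to 10.2 TPM), with Cdh5 and Krt8 at 0. None of 8 neutrophil markers did so (0 to 0.129 TPM, with S100a8 and 6 others at 0), and none of 8 mast cell and basophil markers (0.214 to 0.817 TPM), of which Mcpt8, Cpa3, Fcer1a, Tpsb2, Mcpt4 and Prss34 were at 0 counts.

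Of the 79 genes, 33 stood at or above 1 TPM in all 4 libraries, beside 49.9% of the 21764 protein-coding genes. Another 4 reached this level in some libraries, 22 had counts but stayed below it, and 20 had no count in any library. The share differed by the role of the protein, in that 22 of 36 receptor chains reached the level in every library, 9 of 35 ligands and 2 of 7 antagonists, decoys and binding proteins. The summed level was 1043 ± 54.7 TPM for the receptor chains and 656 ± 43.8 TPM for the ligands (SD, n = 4). The ligand sum came mostly from 3 genes, Il3, Lif and Csf2, which held 84.3% ± 0.744 of it, and 6 genes (Il21r, Il3, Il4ra, Lif, Csf2 and Il12rb1) held 72.2% ± 0.672 of the sum over all 79. The roles were assigned with earlier results of these data known, and since the cells were sequenced in bulk, fewer cells making a transcript and less of it per cell cannot be told apart.

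**Figure D1:**
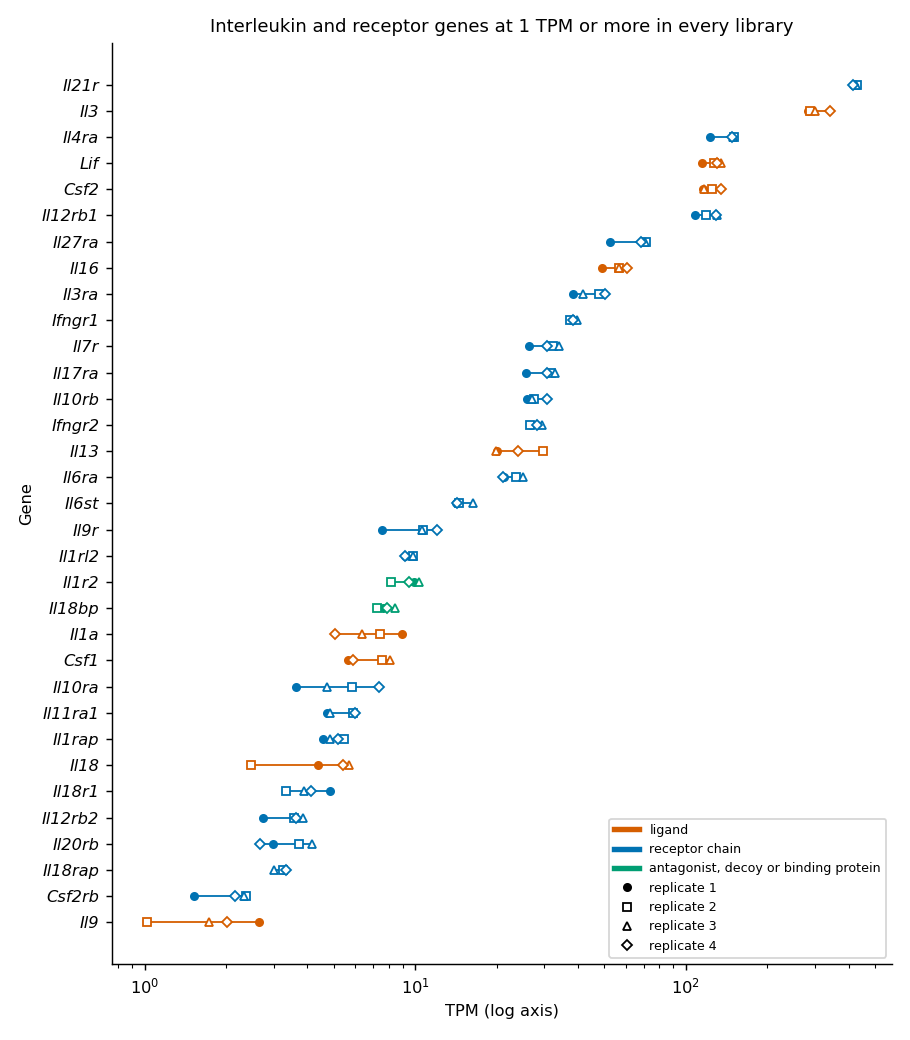
TPM (log axis) of the 33 interleukin and receptor genes at 1 TPM or more in every library, ordered by mean, with 1 symbol per replicate, a line from the lowest to the highest replicate and colour by role. Il21r and Il3 stood apart from the genes below them, while most other neighbours overlapped.

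Along the order of these 33 levels, the ranges of neighbouring genes overlapped in 25 of 32 pairs and were apart in 7. The breaks between neighbours lay below Il21r, Il3, Il12rb1, Ifngr1, Il6ra, Il6st and Il18rap. The last held for the neighbour only, since Il18, higher in the order, fell to 2.48 TPM and Il9, lower in it, reached 2.64 TPM. Il4ra, Lif, Csf2 and Il12rb1 overlapped in sequence between 108 and 151 TPM.

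Among ligands Il3 was the highest, followed by Lif and Csf2, whose ranges overlapped. Il3, a growth factor for early blood cells and mast cells (ENSMUSG00000018914.5, mm10 chromosome 11, 54265303 to 54267277, minus strand), stood at 284, 288, 300.1 and 343 TPM in replicates 1 to 4. Csf2, which codes for the granulocyte-macrophage factor GM-CSF, stood at 116, 125, 117 and 135 TPM. Il3 was the higher of the pair in all 4 libraries, by 1.30 ± 0.07 on the log2(TPM + 0.1) scale (SD, n = 4), and replicate 4 was the highest for both genes, whose ranges did not overlap. The exact two-sided sign-flip permutation test gave p = 0.125, which is the smallest p that 4 libraries allow, and an adjusted p of 0.139 over the 30 pairs of genes compared. Il5, the eosinophil factor of the same family, had 2, 17, 3 and 33 counts and stayed between 0.115 and 0.727 TPM.

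Il4, Il13 and Il5 lie in a row on chromosome 11, and Csf2 and Il3 follow on the same chromosome after a gap of 522 kb. Il13, a type 2 cytokine that acts on epithelium and macrophages, stood at 19.996, 29.7, 19.97 and 24.1 TPM. Il4, the cytokine that drives Th2 differentiation, stood at 1.66, 0.537, 0.817 and 0.414 TPM, from 23, 24, 13 and 15 counts. Il13 exceeded Il4, 12.7 kb away, by 4.77 ± 0.98 log2 in 4 of 4 libraries, or by 3.81 with the length of the longest coding transcript. Il5 was lower than Il4 in 3 libraries and higher in 1 (difference -1.22 ± 1.60 log2, exact sign-flip p = 0.375). With the length of the longest coding transcript Il5 was lower in all 4, and the difference was -2.02. Replicate 1 had the highest Il4 and the lowest Il5, and replicate 4 the reverse.

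**Figure D2:**
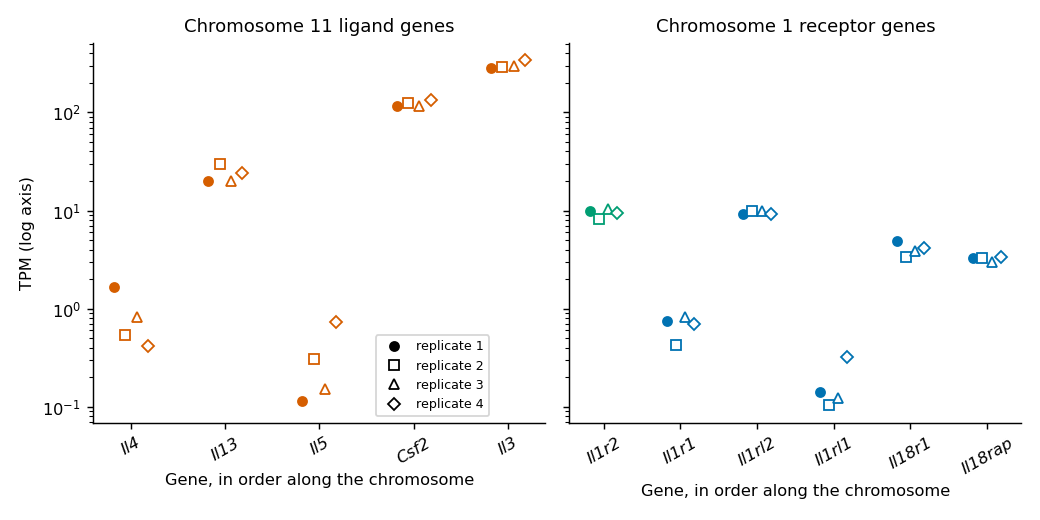
TPM (log axis) in each replicate for 5 ligand genes on chromosome 11 and 6 receptor genes on chromosome 1, in their order along the chromosome and not to scale, with colour by role as for the levels of all genes. Il3 and Csf2 stood above 100 TPM, Il13 near 23.4 and Il4 and Il5 mostly below 1, and on chromosome 1 Il1r1 and Il1rl1 lay below their neighbours in every replicate.

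The bases before the start sites of Il3, Il13, Il4 and Il5 are shown because these ligand genes of 1 chromosome stood at mean levels from 304 TPM (Il3) to 0.324 TPM (Il5). Each is the 250 bases before the start site in RefSeq on GRCm38.p6 (mm10), read 5′ to 3′ on the gene's own strand, at chr11:54267280-54267529 for Il3, chr11:53634703-53634952 for Il13 and chr11:53618666-53618915 for Il4 on the minus strand, and at chr11:53720544-53720793 for Il5 on the plus strand. Capitals mark GGAAA, the core recognised by NFAT factors, on either strand.
Il3: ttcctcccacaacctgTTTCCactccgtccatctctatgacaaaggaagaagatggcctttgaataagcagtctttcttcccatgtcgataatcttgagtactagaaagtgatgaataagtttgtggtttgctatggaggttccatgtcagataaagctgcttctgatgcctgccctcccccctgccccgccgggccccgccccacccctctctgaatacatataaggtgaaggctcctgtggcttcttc
Il13: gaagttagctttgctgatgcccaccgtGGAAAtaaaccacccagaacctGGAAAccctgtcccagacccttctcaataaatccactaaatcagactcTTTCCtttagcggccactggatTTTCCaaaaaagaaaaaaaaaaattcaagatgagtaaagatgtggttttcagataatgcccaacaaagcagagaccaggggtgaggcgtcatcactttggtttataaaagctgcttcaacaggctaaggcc
Il4: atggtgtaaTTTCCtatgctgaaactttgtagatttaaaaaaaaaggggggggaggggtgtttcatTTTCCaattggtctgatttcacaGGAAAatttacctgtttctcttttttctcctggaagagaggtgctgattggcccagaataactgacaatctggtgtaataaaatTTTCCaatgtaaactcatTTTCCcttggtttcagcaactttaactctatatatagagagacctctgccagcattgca
Il5: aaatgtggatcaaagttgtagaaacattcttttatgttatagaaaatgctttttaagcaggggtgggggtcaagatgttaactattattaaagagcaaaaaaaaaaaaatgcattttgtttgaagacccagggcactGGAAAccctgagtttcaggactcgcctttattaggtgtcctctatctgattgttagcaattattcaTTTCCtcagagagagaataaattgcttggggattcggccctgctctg
The core GGAAA matched once in Il3, 4 times in Il13, 5 times in Il4 and 2 times in Il5. Any link between matches and levels was not tested. Over 27025 genes, 55.6% of such windows held at least 1 match. The AP-1 motif TGANTCA matched in none of the 4 windows and in 6.87% of all. The GATA string AGATAA matched once in Il3 and once in Il13 and in 10.3% of all windows. The TATA string TATAAA matched only in Il13, on both strands at overlapping positions that begin at -31 and -29 from the start site. It matched in 13.0% of all windows. Only these exact strings were searched, so a window without a match can hold another form of the GATA or TATA motif. A match is a run of letters and not evidence of binding. The Csf2 window is not shown, because its RefSeq start lay 232 bases from the gene's end in the deposited annotation, against 0 to 4 bases for the others.

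Lif overlapped Csf2 in level and was the higher in 2 of 4 libraries. This gene, a gp130 ligand known for keeping mouse embryonic stem cells undifferentiated, stood at 115, 127, 135 and 130.2 TPM. Il16, whose product attracts CD4 cells, stood at 49.2, 56.8, 56.6 and 60.4 TPM. Il1a, an alarm signal of damaged cells, stood at 8.93, 7.40, 6.37 and 5.08 TPM, whereas Il1b, the form secreted by activated macrophages, had 0 counts in every library. Csf1, the macrophage growth factor, stood at 5.67, 7.56, 8.05 and 5.89 TPM, below Csf2 in every library (difference -4.18 ± 0.29 log2, or -1.47 without division by length). Il18, a cytokine that raises interferon gamma production, stood at 4.38, 2.48, 5.69 and 5.42 TPM, lowest in replicate 2. Il9, a mast cell and T cell growth factor, was the lowest of the 9 at 2.64, 1.02, 1.73 and 2.02 TPM, from 12 to 32 counts. Il9 exceeded Il4 in 4 of 4 libraries, by 1.12 ± 0.63 log2, but the mean difference was 0.02 without division by length and 0.20 with the length of the longest coding transcript, neither in 1 direction in all libraries.

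Ifng, Il21, Il10 and Il6 had at most 19 counts in any library. Ifng, the Th1 cytokine interferon gamma, had 0, 4, 18 and 19 counts in replicates 1 to 4, or 0, 0.0848, 1.07 and 0.497 TPM. Replicate 3 reached 1 TPM and replicate 1 had none, where a count of 0 allows up to 0.205 TPM. An overlapping gene on the same strand, Gm49751, covers 25.9% of the exon bases of Ifng, so some of its read pairs may have gone uncounted. Il21, a product of follicular helper and Th17 cells, had 7, 5, 3 and 14 counts and at most 0.118 TPM, and it was below Il4 in 4 of 4 libraries. Il10, the anti-inflammatory cytokine, had 0, 2, 3 and 1 counts, and Il6 had 0, 3, 0 and 14. Il23a, the private subunit of IL-23, stood at 0.749 to 1.18 TPM, while Il12a had 0, 10, 3 and 0 counts and Il12b, the subunit that IL-12 and IL-23 share, had none. The remaining ligands with counts were Il11 at 0.135 to 0.450 TPM, Il33 at 0.0535 to 0.129 and Il7, Il17d, Il19 and Il34 with 1 to 5 counts in all. No count was found for Il1b, Il1f6, Il1f8, Il1f9, Il12b, Il17b, Il17c, Il20, Il24, Il25, Il27 and Il31. Of these, Il1f6, Il1f8 and Il1f9 code for the IL-36 cytokines, known from epithelia.

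Among the receptor chains of the 79 genes, the highest by mean, Il21r and Il4ra, belong to the common gamma chain group. Il21r, the private chain of the IL-21 receptor (ENSMUSG00000030745.9, mm10 chromosome 7, 125603429 to 125633570, plus strand), stood at 415, 430, 427 and 414 TPM, rank 325 among the protein-coding genes. Il4ra, the chain that binds IL-4, ends 24.0 kb before it on the same strand and stood at 123, 151, 149 and 148 TPM. Il21r was the higher in 4 of 4 libraries, by 1.57 ± 0.13 log2, or 0.71 without division by length. Il7r, the receptor of the survival factor IL-7, stood at 26.3, 32.2, 34.0 and 30.8 TPM, below Il4ra in every library (difference -2.21 ± 0.06 log2, or -3.11 without division by length). Il9r stood at 7.56, 10.7, 10.6 and 12.02 TPM, lowest in replicate 1. The shared chain Il2rg, not one of the 79 genes, stood at 548 ± 28.6 TPM (SD, n = 4), above Il21r, Il4ra, Il7r and Il9r. Its partners in the IL-2 and IL-15 receptors were left out and not compared.

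Private and shared chains of 1 receptor were often far apart. Il12rb2, the private chain for IL-12, stood at 2.73, 3.57, 3.84 and 3.62 TPM, and Il12rb1, which the receptors of IL-12 and IL-23 share, at 108, 118, 131 and 129.9 TPM. Il12rb2 was below Il12rb1 in every library, with a difference of -5.11 ± 0.11 log2. Il27ra stood at 52.6, 71.4, 70.9 and 68.7 TPM, above its partner Il6st (gp130) at 14.2, 14.5, 16.4 and 14.3 TPM by 2.13 ± 0.19 log2, although by only 0.47 without division by length. Il6st was also below Il6ra, the IL-6 binding chain, which stood at 21.1 to 25.1 TPM. That difference was -0.61 ± 0.06 log2, or -0.26 with the length of the longest coding transcript, in 4 of 4 libraries. Il10ra, which binds IL-10, stood at 3.62, 5.84, 4.72 and 7.39 TPM, and Il10rb, which the receptors of IL-10 and IL-22 share, at 25.9 to 30.7 TPM, a difference of -2.39 ± 0.33 log2, or -3.42 with the length of the longest coding transcript. For Il10rb an overlapping gene, Gm21970, covers 14.9% of the exon bases on the same strand. The chains of the interferon gamma receptor were closer, with Ifngr1 at 37.6, 37.4, 39.7 and 38.3 TPM and Ifngr2 at 26.9, 26.6, 29.5 and 28.1, a difference of 0.46 ± 0.03 log2, or 1.05 with the length of the longest coding transcript. With that length the means were 18.1 in place of 27.8 TPM for Ifngr2, 41.8 in place of 27.8 for Il10rb and 20.4 in place of 30.8 for Il7r.

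In the beta common group, Il3ra stood at 38.4, 47.7, 41.7 and 50.3 TPM and Csf2rb, the chain that signals for IL-3, IL-5 and GM-CSF, at 1.52, 2.37, 2.33 and 2.17 TPM. Il3ra was above Csf2rb by 4.35 ± 0.21 log2 in 4 of 4 libraries, or by 2.61 without division by length, although with the length of its longest coding transcript its mean was 19.6 in place of 44.5 TPM. Csf2rb2, the mouse copy of Csf2rb that serves IL-3 alone, stood at 1.46 ± 0.274 TPM (SD, n = 4), and since reads that map to both were not counted, the levels of these near-identical genes are uncertain and can be too low. Csf2ra, the GM-CSF binding chain, stood at 49.4 ± 8.28 TPM. Il5ra had no count in any library.

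On chromosome 1, 6 genes for IL-1 family receptors lie in a row, and higher and lower levels alternated among the first 5. Il1r1, the signalling receptor for IL-1, stood at 0.752, 0.423, 0.824 and 0.697 TPM, and Il1r2, a decoy that binds IL-1 without signalling and lies 99.8 kb away, at 9.89, 8.14, 10.3 and 9.53. Il1r1 was below Il1r2 in every library, with a difference of -3.65 ± 0.22 log2, or -2.03 without division by length and -2.65 with a pseudocount of 1. Il1rl2, the receptor of the IL-36 cytokines, stood at 9.19, 9.83, 9.79 and 9.20 TPM, and Il1rl1, the IL-33 receptor, at 0.141, 0.104, 0.123 and 0.319, below its neighbour Il18r1 in every library (difference -3.98 ± 0.45 log2, or -2.10 with a pseudocount of 1). Il18r1 and Il18rap, the chains of the IL-18 receptor, stood at 3.32 to 4.84 TPM and 3.00 to 3.32 TPM. Il18r1 was higher than Il18rap in 4 of 4 libraries by only 0.31 ± 0.22 log2, and the sign turned to -0.17 without division by length. Il1rap, the accessory chain of the IL-1, IL-33 and IL-36 receptors, stood at 4.56 to 5.46 TPM, and at a mean of 9.19 TPM in place of 5.01 with the length of its longest coding transcript. Of the inhibitors, Il18bp, which binds IL-18 in solution, stood at 7.26 to 8.44 TPM, and Il1rn, the IL-1 receptor antagonist, at 0.0800 to 0.279.

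In the IL-17 group Il17ra, the chain shared by its receptors, stood at 25.6, 31.7, 32.8 and 30.9 TPM, while Il17rc, its partner for IL-17A and IL-17F, had 2, 15, 10 and 4 counts and at most 0.289 TPM. Il17rd at 0.568 to 0.942 TPM, Il17re at 0.271 to 0.644 and Il17rb at 0 to 0.195 were also below 1 TPM. Il20rb, at 2.66 to 4.14 TPM, had no abundant partner, as Il20ra had 2 counts in all and Il22ra1 none. Il11ra1, the IL-11 binding chain, stood at 4.74 to 6.00 TPM, or at a mean of 8.72 in place of 5.37 with the length of the longest coding transcript, and its near-identical copy Il11ra2 was listed at 0, so both levels are uncertain. Il13ra1, which joins Il4ra in the type II receptor for IL-4 and IL-13, had 1, 25, 6 and 53 counts, or 0.0239, 0.185, 0.125 and 0.483 TPM. Replicate 4 was the highest, and the gene did not pass the filter on low counts for the test between libraries. Il31ra and Il1rapl2 had 1 count each over all libraries, Il13ra2, Il22ra2, Il1rapl1, Il1f5 and Il1f10 none, and Il4i1, an amino acid oxidase induced by IL-4 and named for it, stood at 0.977 to 1.61 TPM.

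When the chains were put together into 25 receptors, 14 had every chain at or above 1 TPM in all 4 libraries and 11 had at least 1 chain below it. Of the 8 receptors whose listed ligand was at that level, 4 were complete, those of IL-3, GM-CSF, IL-9 and IL-18. At a threshold of 2 TPM only IL-18 of these had both ligand and receptor, and at 1 CPM in place of 1 TPM there were 2 such receptors. For the other 4 a chain was low. Lifr, the private chain for LIF, had 1 count over all libraries, Csf1r, the receptor of CSF-1, had 7, all in replicate 4, Il13ra1 averaged 0.204 ± 0.198 TPM and Il1r1 0.674 ± 0.175 TPM (SD, n = 4). Another 10 receptors were complete while their ligand was below the level in at least 1 library. These were the receptors of IL-21, with Il21 at 0.0695 ± 0.0420 TPM against Il21r at 421 ± 8.11, of IL-4 (type I), with Il4 at 0.857 ± 0.562 against Il4ra at 143 ± 13.4, and of IL-7, IL-6, IL-27, IL-10, IL-11, IL-12, IL-36 and interferon gamma. Il21 was below Il21r and Il4 below Il4ra in 4 of 4 libraries. The transcripts were measured, not the proteins, so whether these chains form receptors on the cells was not tested.

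**Figure D3:**
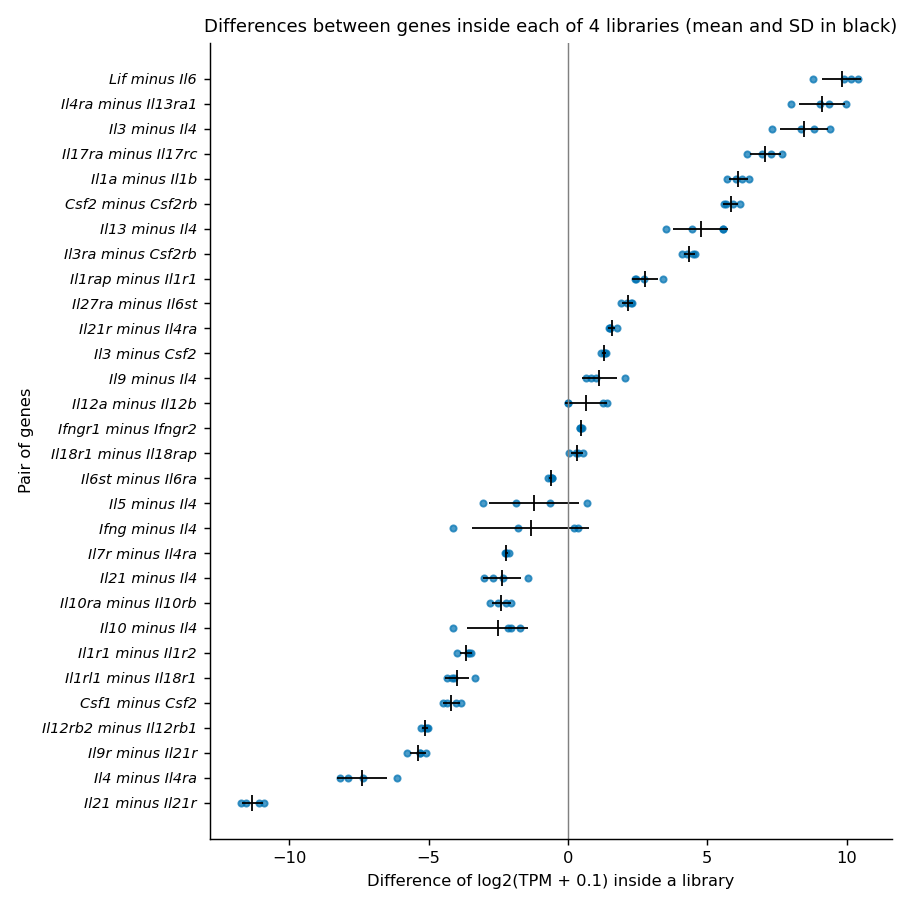
Differences of log2(TPM + 0.1) between 2 genes inside each library for the 30 pairs compared, with blue points for the 4 libraries and the mean and SD in black. Of the 30 pairs, 27 lay on 1 side of 0 in all 4 libraries, and only Il5 minus Il4, Ifng minus Il4 and Il12a minus Il12b did not.

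Over the 30 pairs compared inside the libraries, 27 kept 1 direction in all 4, 15 with the gene named first higher and 12 with it lower (exact sign-flip p = 0.125 each, adjusted p = 0.139). Without division by length 25 pairs kept 1 direction. No pair could pass 0.05 with 4 libraries, so direction and spread are what these pairs show. Ifngr1 minus Ifngr2 had an SD between libraries of 0.03 log2, and Il7r minus Il4ra and Il6st minus Il6ra of 0.06 each. Pairs with a gene near 0, such as Ifng minus Il4 (-1.34 ± 2.11 log2), had wider spreads, and with a pseudocount of 1 that difference was -0.41.

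The libraries were then compared for each gene with edgeR's goodness of fit, which asks whether a gene varied more between libraries than genes of its level usually do. Of the 79 genes, 40 passed the filter on low counts and were tested among 14269. None was called at a Benjamini-Hochberg adjusted p below 0.05, beside 0.463% of all genes tested. At an unadjusted p below 0.05 there were 3, beside 5.69% of all genes, and limma's variance test also called none, beside 0.217% of all, and gave 1 at an unadjusted p below 0.05, beside 4.46%. With a common in place of a trended dispersion, 5 of the 40 were called (Il10ra, Il17re, Il18, Il1rl1 and Il4), beside 6.69% of all genes. The median highest-to-lowest ratio of CPM was 1.27 over these 40 genes and 1.20 over all tested.

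The 3 genes with an unadjusted p below 0.05 were Il10ra (SD 0.41 log2 CPM, edgeR adjusted p = 0.708), Il27ra (SD 0.17, adjusted p = 0.760) and Il4 (SD 0.83, adjusted p = 0.867). Il10ra was highest in replicate 4 and lowest in replicate 1, and its highest CPM was 1.94 times its lowest. Il27ra was low in replicate 1 alone. At the other end, Il21r had an SD of 0.03 log2 CPM and a highest-to-lowest ratio of 1.05, and Il1rl2 of 0.04 and 1.06. Replicates 1 and 3 held the fewest counts, and 7 of the 40 genes were higher in both than in replicates 2 and 4, beside 15.5% of all genes tested, and 10 were lower in both, beside 16.2%. The part of depth or batch in the levels of these genes was not tested.

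**Figure D4:**
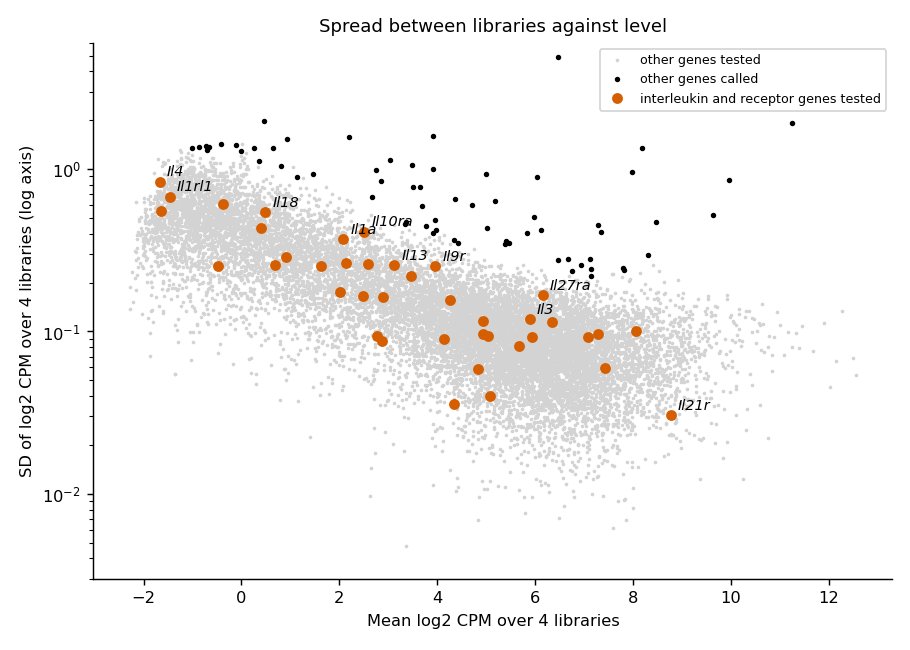
SD of log2 CPM over the 4 libraries (log axis) against mean log2 CPM for the genes tested with edgeR, with the 40 interleukin and receptor genes in orange, other genes in grey and the other genes called at an adjusted p below 0.05 in black. Spread falls with level for all genes, the orange points lie among the grey ones.

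Genes that carry these signals inside the cell were also read, from lists chosen with earlier results known. All 11 JAK and STAT genes stood at or above 1 TPM in all 4 libraries, beside 49.9% of all protein-coding genes. They were led by Stat6, the STAT of IL-4 and IL-13, at 281 ± 18.3 TPM and Jak2 at 227 ± 8.79 (SD, n = 4). The kinases of the common gamma chain receptors, Jak1 and Jak3, stood at 130.02 ± 7.42 and 210.2 ± 24.6 TPM. Of the 8 adaptors of the IL-1 and IL-17 receptors, 7 reached the level, led by the kinase Irak1 at 106 ± 10.2 TPM and the adaptor Myd88 at 83.2 ± 3.10. All 11 feedback inhibitors did so, led by the phosphatase Ptpn6 at 580.0 ± 20.9 TPM and Cish, a target of STAT5, at 179 ± 24.8. Of 40 such genes tested with edgeR, including partner chains, 0 were called after adjustment, beside 0.463% of all genes. Without adjustment 3 had a p below 0.05, beside 5.69%. For the same genes limma's variance test called 0, beside 0.217% of all, with 4 below 0.05 without adjustment, beside 4.46%. A common dispersion in edgeR called 2 of 40, beside 6.69% of all genes.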

How the data were processed

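The authors deposited raw counts of read pairs per gene, made with featureCounts 1.4.6-p4 on the exons of GENCODE M13 from STAR alignments to mm10, per the file headers. The labels call the assay total RNA-seq, while the linked library protocol is named for poly(A)+ RNA. Pairs were counted with both ends mapped and reverse strand, and without the options for multiply mapped or multiply assigned reads, so near-identical and overlapping genes can lose counts. Symbols and gene classes came from GENCODE M21, which matched 50376 of the 50600 genes by identifier. No pair of libraries agreed within sampling noise (chi-square per degree of freedom 26.7 to 76.1), so all 4 were counted. Library totals ran from 34978213 to 118937382 counts.

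TPM was computed from these counts and the deposited lengths. Pairs of genes were compared as differences of log2(TPM + 0.1) with an exact sign-flip test (Python 3.11.15). Variation was tested with edgeR 4.0.16 (filterByExpr, TMM, intercept only, goodness of fit under the trended dispersion, Benjamini-Hochberg over all genes) and with limma 3.58.1, in R 4.3.3. The edgeR test was checked with simulated counts, and the limma test was not. Named genes were those at 1 TPM in all libraries, those in the pairs, those called and ligands with 10 or more counts, while the rest were named in groups. The members, lists, pairs and receptors were chosen with earlier results of these data known. RefSeq entries on GRCm38.p6 gave promoters for 63 of the 79 genes.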

Additional observations from a re-analysis of the deposited data

Results flagged for a closer look

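Among 76 levels and differences looked at over the 4 libraries, 4 had 1 library far from the rest relative to the whole range, close to the 3.80 that chance gives at about 1 in 20. In replicate 1, Il27ra stood at 52.6 TPM, against 68.7 to 71.4 in the others, and Il4ra at 123 TPM, against 148 to 151. The difference Il21r minus Il4ra was 1.76 log2 in replicate 1, against 1.48 to 1.52, which rests on the same Il4ra value. In replicate 3, Il6st stood at 16.4 TPM, against 14.2 to 14.5. Levels were picked out on TPM alone. Scaled by TMM factors instead, Il6st was 15.9 in replicate 3, against 14.2 to 14.8. In replicate 1, Il4ra was then 128, against 145 to 149, and Il27ra 54.8, against 68.6 to 70.6. Il4ra and Il6st thus stood less far from the rest with TMM than with TPM. No explanation was tested for these values.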

How the results depend on the processing

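Of 240 recomputed differences between genes (pseudocounts of 1 and 0.01, CPM in place of TPM, the longest coding transcript as length, each replicate left out), 1 changed sign, Il18r1 minus Il18rap at -0.17 with CPM. The count of genes at the level in every library was 33, and 36 at a TPM of 0.5, 31 at a TPM of 2, 33 with CPM or the longest coding transcript, and 33 to 34 with 1 replicate left out. Complete receptors numbered 14, and 12 at a TPM of 2. Those complete together with their ligand numbered 4, and 1 at a TPM of 2, 2 at a CPM of 1, 3 with the longest coding transcript and 4 under the other settings. Variable genes numbered 0 under size factors by relative log expression, no filter, limma, a correction for GC content and length and with replicates left out, and 5 under a common dispersion, which called 955 of 14269 genes in place of 66. The length of the longest coding transcript, the complete receptors under other settings and the fit without replicates 1 and 3 were chosen after seeing the data. No paired analysis was possible because there is 1 group. Il4, Il5, Ifng and Il9 rest on 0 to 33 counts per library, which limits their precision.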

Other observations

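Some partner genes outside the 79 were abundant. Of 18 listed partner chains and ligands, 9 stood at or above 1 TPM in all 4 libraries, beside 49.9% of all protein-coding genes. They were led by Il2rg and by Ebi3, which pairs with the product of Il27 in the cytokine IL-27. Ebi3 stood at 319, 371, 364 and 361 TPM in replicates 1 to 4, while Il27 had no count. Named after their values were seen, Sigirr, an inhibitor of IL-1 family receptors, stood at 182 ± 10.4 TPM (SD, n = 4), Crlf2, the receptor chain of the epithelial cytokine TSLP, at 63.7 ± 5.55, and Osm, oncostatin M, a gp130 ligand like Lif, at 42.6 ± 5.78. Osmr, the receptor chain of oncostatin M, stood at 0.0755 ± 0.0354 TPM.

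Over the 63 genes with a promoter entry, the NFAT core GGAAA matched in 69.8% of the windows, beside 55.6% of all, and the AP-1 motif TGANTCA in 19.0%, beside 6.87%. Among the 27 of them at or above 1 TPM in all 4 libraries the shares were 63.0% and 14.8%. The GATA string AGATAA matched in 17.5% of the 63 and 22.2% of the 27, beside 10.3% of all. For the TATA string TATAAA the shares were 14.3% and 14.8%, beside 13.0%. Of the 63 start sites, 40 lay within 10 bases of the deposited gene start, and the Csf2 window is among the 63. For the 63 genes the entry nearest the deposited start was taken, and for all genes the first entry listed. These shares are descriptions of short windows and were not tested.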
